A study of Homo sapiens with 6 samples.

Results

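The genes of DNA replication and S phase are described here as a set of 43, taken by symbol from a fixed list of replication factors, enzymes of deoxynucleotide supply, regulators of the G1/S transition and fork protection genes. All 43 symbols were matched to 1 Ensembl identifier each, out of 60671 identifiers in every count file. The rule that picks them uses no measured value, although the list was drawn up with earlier results of these data known. The RNA came from EndoC-βH1 cells, an immortalized human pancreatic β cell line with wild-type genotype, and was sequenced in 6 samples. In the DMSO group, 3 samples received the vehicle, and in the AZD7762 group, 3 samples received 1 µM AZD7762, a small molecule inhibitor of the checkpoint kinases CHEK1 and CHEK2. The compound or vehicle was present during 1 h of starvation at 0.5 mM glucose and during the following 1 h of stimulation, for which the labels name 0.5 mM or 20 mM glucose without saying which library received which. All libraries therefore come from 1 cell line at 1 dose and 1 time, and the p-values measure the spread between these samples. The study's methods describe in vitro replicates in general as independent, while the labels do not say for these libraries whether they came from separate cultures.

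Before S phase, the origin recognition complex, CDC6 and CDT1 load the MCM2-7 helicase onto DNA, and CDC45 and the GINS complex later switch it on. DNA polymerases, the sliding clamp PCNA and its loader RFC then copy the template, while RPA coats single-stranded DNA and FEN1 and LIG1 join Okazaki fragments. Transcription of most of these genes is known to be driven by E2F factors once RB is phosphorylated at the G1/S transition, and CHEK1 is known to restrain origin firing and to protect forks in S phase. EndoC-βH1 cells were made with the large T antigen of a simian virus, a protein known to bind and inactivate RB, and they cycle in culture, unlike most β cells of adult islets. The comparison asks whether replication and S-phase transcripts shifted within these 2 steps of treatment.

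E2F-type sequences were looked for in the promoters, because this is the element that these genes are known to share. RefSeq promoter windows (GRCh38.p14, 250 bases before to 50 bases after an annotated start) were found for 37 of the 43 genes, the others being MCM4, MCM5, GINS4, RPA2, RPA3 and CCNE2. The spellings TTTGGCGC, TTTCCCGC, TTTGCCGC and TTTCGCGC were searched on both strands, and TTTGGCGC and the reverse of TTTCGCGC can overlap. At least 1 of them was present in 21 of the 37 genes (56.8%), compared with 1090 of 27305 genes with a window (3.99%). Those 27305 genes were not matched to the 37 for gene type or GC content. The letters CCAAT were present in 56.8% of the 37 genes and 39.7% of all genes, and the GC box GGGCGG in 73.0% and 48.3%. The element TTTGAA, known from genes expressed in G2 and M phase, was found in 1 of the 37 genes (2.70%) and in 18.2% of all genes. The following 8 stretches, each lying before the annotated start and read 5′ to 3′ on the strand of the gene, show the E2F-type letters in capitals in genes from 6 of the 8 roles used below. In MCM6 a pair of matches overlaps to give 1 longer run of capitals, and in E2F1, which encodes one of the factors that bind this element, 2 matches stand close together.
MCM3, chr6:52284883-52284942, minus strand: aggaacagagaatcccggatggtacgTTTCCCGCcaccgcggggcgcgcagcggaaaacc
MCM6, chr2:135876562-135876621, minus strand: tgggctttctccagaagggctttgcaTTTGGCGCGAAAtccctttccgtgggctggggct
CDT1, chr16:88803728-88803787, plus strand: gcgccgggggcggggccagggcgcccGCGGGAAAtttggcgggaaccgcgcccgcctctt
GINS2, chr16:85688955-85689011, minus strand: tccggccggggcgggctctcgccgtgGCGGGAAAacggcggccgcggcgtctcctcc
POLA2, chr11:65261883-65261942, plus strand: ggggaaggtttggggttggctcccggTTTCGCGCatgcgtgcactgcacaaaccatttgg
PCNA, chr20:5126648-5126707, minus strand: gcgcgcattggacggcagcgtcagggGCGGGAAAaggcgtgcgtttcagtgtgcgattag
LIG1, chr19:48170425-48170484, minus strand: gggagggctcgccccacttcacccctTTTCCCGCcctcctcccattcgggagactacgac
E2F1, chr20:33686386-33686444, minus strand: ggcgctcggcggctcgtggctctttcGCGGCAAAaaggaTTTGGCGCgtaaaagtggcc

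The matches lay close to the start in some genes and far from it in others: 23 bases separated the match from the start in GINS2 and 27 in CDT1, against 144 for the first match in MCM6 and 166 for that in MCM3. A match describes these letters only and was not tested for binding.

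The libraries held between 20486391 and 29402440 counts. CPM are counts divided by a library total and multiplied by a constant that is the same in every sample. A count of 3 corresponded to 0.102 to 0.146 CPM, a floor that covers counting error only. This floor used the unscaled total of all counts, whereas the other CPM values used the total of the tested genes scaled by TMM. All 43 genes passed the filter on low counts, and the lowest count of any of them in any sample was 198. β cell markers were present in all samples (12 of 12 tested, summed level 8247 to 9464 CPM with DMSO and 8991 to 9480 CPM with AZD7762). Of 6 markers of other islet endocrine cells, 4 were tested and the sum was 222 to 253 CPM with DMSO and 261 to 287 CPM with AZD7762, mostly SST. Of 8 exocrine markers, PRSS1, CELA3A, CTRB1 and PNLIP were at 0 in every sample and the sum was 46.7 to 52.6 CPM with DMSO and 50.8 to 57.4 CPM with AZD7762. That sum was mostly CPA1 (means of 21.8 CPM with DMSO and 25.7 with AZD7762) and KRT19 (26.1 and 27.1). The 7 of 8 mesenchymal and immune markers with an identifier summed to 15.7 to 20.9 CPM with DMSO and 17.3 to 20.7 CPM with AZD7762. The part of other cell types in the results was not tested. Annotated pseudogenes that carry the symbols of 11 of the 43 genes, 19 in all, held at most 1.58 CPM in any sample. In such bulk samples, fewer cells in S phase and less RNA per cell cannot be told apart.

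EndoC-βH1 cells transcribed all 43 genes at measurable levels in both groups. Mean levels over the 6 samples ran from 10.1 CPM for POLA2, the B subunit of DNA polymerase α, to 955 CPM for RRM2, the small subunit of ribonucleotide reductase, with a median of 70.6 CPM against 17.7 CPM over all 17649 genes tested. Per length, as CPM per kb of the canonical transcript, PCNA stood highest at 396 and exceeded 99.5% of all genes tested, followed by RRM2 at 293 and MCM7 at 241. RRM1, MCM4, MCM3 and MCM6 lay together between 98.0 and 113 CPM per kb, while BRCA2 at 2.24, POLA2 at 2.85 and MCM10 at 3.82 CPM per kb were the lowest. The 6 subunits of the MCM2-7 ring, which are present once each in the complex, thus differed from 49.7 CPM per kb for MCM5 to 241 for MCM7. The choice of length changed this order in part: divided by all annotated exons instead, an alternative chosen after the data were seen, PCNA was still first at 360, MCM7 stood at 120 and RRM2 at 104, and MCM4 moved from rank 5 to rank 12 with 45.4 CPM per kb. BRCA2, POLA2 and MCM10 were among the lowest 3 by both lengths.

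**Figure D1:**
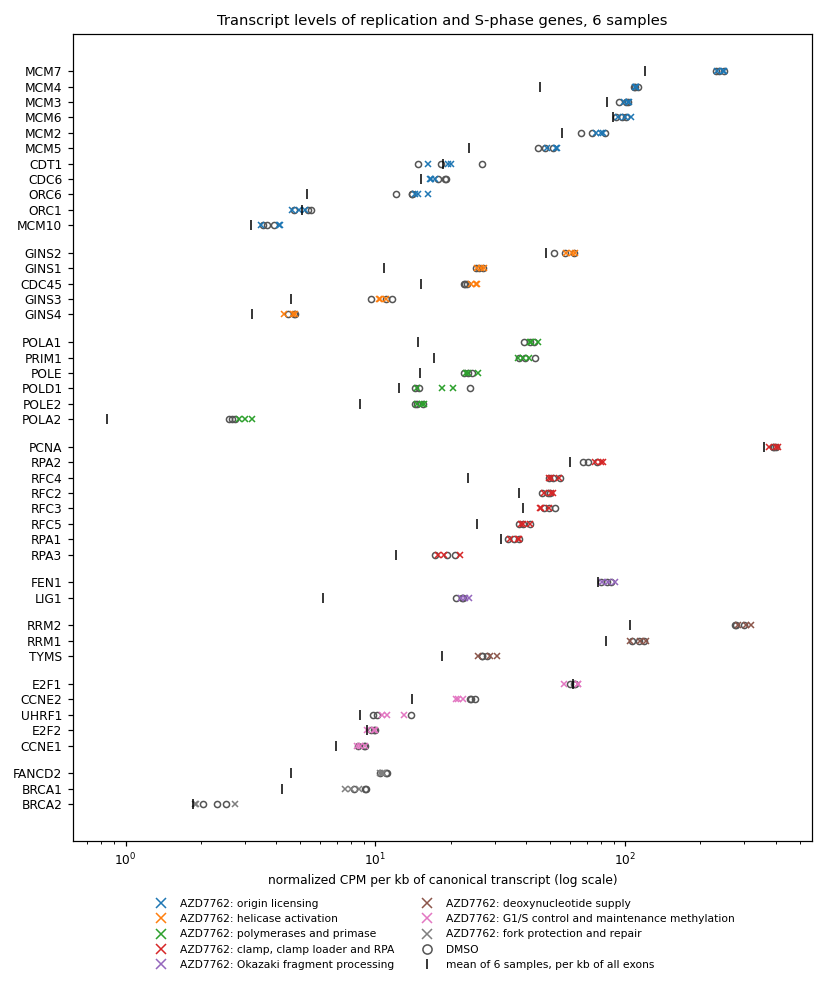
Level of each of the 43 genes in each sample as normalized CPM per kb of canonical transcript on a log axis, by role; open circles are DMSO samples, crosses AZD7762 samples, and bars the mean of the 6 samples per kb of all exons. Circles and crosses of a gene lie on top of each other for most genes, while the genes themselves range from 2.24 for BRCA2 to 396 for PCNA.

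No replication or S-phase gene was called between AZD7762 and DMSO. Tested with edgeR's quasi-likelihood method and p-values adjusted by Benjamini-Hochberg over the whole table, 0 of 43 genes had an adjusted p under 0.05, where 125 of 17649 genes (0.708%) did, 0.357% higher and 0.351% lower with AZD7762. The smallest adjusted p among the 43 was 0.334 for CCNE2. At an unadjusted p under 0.05 there were 2 of the 43 genes (4.65%), CCNE2 and CDC6, both lower with AZD7762, compared with 9.68% of all genes, and DESeq2's Wald test also gave 0 called and 2 at an unadjusted p under 0.05. Without DMSO replicate 3 or without AZD7762 replicate 3, 6 of the 43 passed the unadjusted threshold, and without AZD7762 replicate 1 only 1 did. The share of all genes passing was not counted in these runs, so their counts have no background to be read against. The groups did not overlap for 5 of the 43 genes (11.6%), AZD7762 lying above DMSO for ORC6, CDC45 and POLA2 and below it for CCNE2 and CDC6, against 15.0% of all genes, 6.79% above and 8.25% below.

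The fold changes were not only below the threshold but narrowly bounded. The fitted log2 fold changes ran from -0.17 (CCNE2) to 0.18 (ORC6), with a median of 0.02. Of the 43, 29 were positive (67.4%, compared with 52.4% of all genes). Only 14 were positive when the libraries were scaled by their totals alone. That scaling also lowered the median over all genes, to -0.028, and the median of the 43 was then -0.017. The median size of the change, whatever its sign, was 0.04 on the log2 scale, compared with 0.09 over all genes. For all 43 genes the 95% interval of the log2 fold change, taken gene by gene, lay within 0.5 of 0 in either direction, which upwards is a rise of 41.4%, whereas this held for 70.1% of all genes tested. It lay within 0.3 for 36 of the 43 genes, compared with 45.9% of all genes. The lowest bound of any member was -0.45, for CDT1, and the highest was 0.38, for POLA2, with that of POLD1 also at 0.38. The median standard error of the log2 fold change was 0.0654 for the 43 genes and 0.0973 over all genes. The 43 genes also had a higher median level, 70.6 against 17.7 CPM, and they were not compared with genes of like level.

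**Figure D2:**
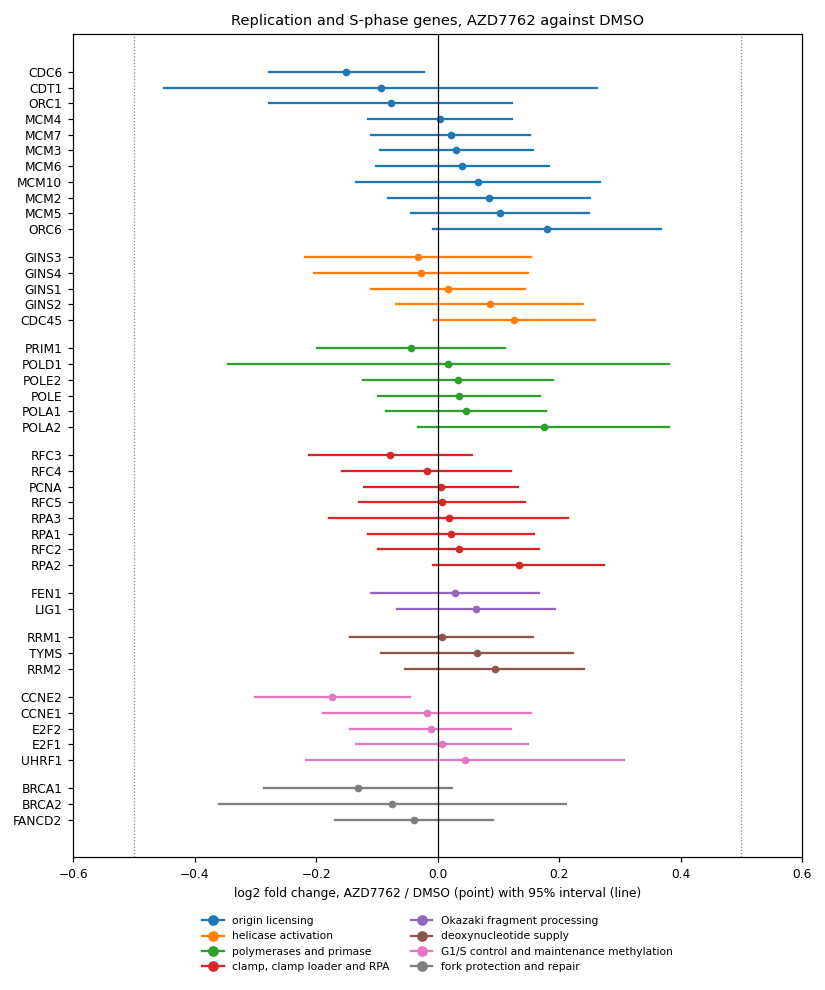
Fitted log2 fold change of AZD7762 against DMSO (point) with its 95% interval (line) for each of the 43 genes, coloured by role; dotted lines mark 0.5 in either direction. Every interval lies between -0.45 and 0.38, and those of CCNE2 and CDC6 are the only ones that leave out 0.

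The 11 genes of origin licensing held one of the 2 lowest p-values and the gene with the highest fold change. CDC6, the ATPase that works with ORC to load MCM2-7 (ENSG00000094804, GRCh37 chr17:38444131-38460909), stood at 87.7, 81.5 and 87.0 normalized CPM in DMSO replicates 1, 2 and 3 and at 75.2, 79.4 and 76.3 in AZD7762 replicates 1, 2 and 3. Its groups did not overlap, AZD7762 being lower by a log2 fold change of -0.15 (SE 0.0589, interval -0.28 to -0.02), and the adjusted p of 0.424 did not pass. ORC6, the smallest subunit of the origin recognition complex (ENSG00000091651, chr16:46723555-46732306), stood at 19.5, 22.7 and 22.7 CPM with DMSO and at 26.2, 23.8 and 23.2 with AZD7762, without overlap but with the nearest samples close together (log2 fold change 0.18, SE 0.0867, adjusted p = 0.539). ORC1, the subunit whose level rises and falls with the cell cycle in many human cells, overlapped between the groups, at 16.7, 14.8 and 17.3 CPM with DMSO and 14.4, 15.4 and 16.4 with AZD7762.

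Among the helicase subunits, MCM5 had the largest fold change of the MCM2-7 ring, and it overlapped. It was measured at 165, 154 and 178 CPM with DMSO and at 184, 168 and 182 with AZD7762 (log2 fold change 0.10, interval -0.04 to 0.25, adjusted p = 0.674). MCM7, the most abundant of the licensing genes, was at 615, 569 and 586 CPM with DMSO and 612, 608 and 576 with AZD7762 (0.02, interval -0.11 to 0.15). MCM4 had the smallest spread within groups of all 43 genes (1.29% of the mean), with means of 447 ± 7.85 and 448 ± 2.14 CPM in the DMSO and AZD7762 groups (SD, n = 3 each). MCM2, MCM3 and MCM6 had log2 fold changes from 0.03 to 0.08, so that the ring's 6 subunits lay between 0.00 and 0.10, and those of MCM3, MCM4 and MCM7 turned negative when the libraries were scaled by their totals alone. CDT1, which brings MCM2-7 to the origin, and MCM10, which acts when the helicase is switched on, had -0.09 and 0.07 with wide intervals of -0.45 to 0.26 and -0.13 to 0.27. About 23.6% of the exon bases of MCM2 lie over exons of genes on the opposite strand. It is not known whether counting used strand or how it treated shared reads. The counts of MCM2 may therefore hold reads of those genes or lack reads that overlap them.

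The 5 genes of helicase activation gave 1 gene without overlap (20%, compared with 15.0% of all genes). CDC45, which joins MCM2-7 and GINS to form the active helicase (ENSG00000093009, chr22:19466980-19508135), was at 43.0, 43.8 and 42.7 CPM with DMSO and 47.7, 48.1 and 45.5 with AZD7762. All 3 AZD7762 samples lay above all 3 DMSO samples, with a log2 fold change of 0.13 (SE 0.061, interval -0.01 to 0.26, adjusted p = 0.541). GINS2 was the most abundant GINS subunit, at 163, 151 and 136 CPM with DMSO and 166, 161 and 152 with AZD7762, with the groups overlapping (0.09). GINS4 was the least abundant, at 17.9, 18.0 and 16.9 CPM with DMSO and 17.6, 16.2 and 18.0 with AZD7762 (-0.03), and 23.4% of its exon bases lie opposite another gene. GINS1 and GINS3 had 0.02 and -0.03, so the 4 subunits of this complex had values of both signs.

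Among polymerases and primase, the 6 genes had log2 fold changes between -0.04 (PRIM1, the catalytic primase subunit) and 0.17 (POLA2). POLA2 (ENSG00000014138, chr11:65029384-65073430) was at 9.72, 9.20 and 9.49 CPM with DMSO and 10.1, 10.6 and 11.4 with AZD7762, without overlap (SE 0.0951, interval -0.03 to 0.38, adjusted p = 0.60). It was the least abundant of all 43 genes, and 16.8% of its exon bases overlap another gene on the same strand. POLA1, the catalytic subunit of the same polymerase, was at 229, 237 and 216 CPM with DMSO and 228, 246 and 231 with AZD7762, with overlap and a log2 fold change of 0.05. POLE and POLE2, the catalytic and second subunits of the leading strand polymerase ε, had 0.04 and 0.03, and POLD1, the catalytic subunit of polymerase δ, had 0.02 with the widest interval of the set (-0.35 to 0.38).

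The sliding clamp and its loader overlapped between the groups in every subunit measured. PCNA (ENSG00000132646, chr20:5095599-5107272) was at 504, 510.0 and 499 CPM with DMSO and 523, 513 and 482 with AZD7762, with means of 504 ± 5.56 and 506 ± 21.6 CPM (SD over the 3 samples) and a log2 fold change of 0.01 (interval -0.12 to 0.13). The clamp loader subunit RFC3 was at 120.3, 115 and 109 CPM with DMSO and 107, 114 and 105 with AZD7762, overlapping at -0.08 (adjusted p = 0.736). RFC2, RFC4 and RFC5 had values from -0.02 to 0.03. The fitted values of these 4 loader subunits thus lay within 0.08 of 0 on the log2 scale.

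Of the 3 subunits of RPA, only RPA2, the one that is phosphorylated when forks stall, came near separation. Its values of 122, 112 and 108 CPM with DMSO and 127, 129 and 119 with AZD7762 overlapped in 1 pair of samples (log2 fold change 0.13, SE 0.0647, interval -0.01 to 0.27, adjusted p = 0.543). RPA1 had 0.02. RPA3, at 42.2, 39.2 and 34.9 CPM with DMSO and 43.9, 38.2 and 35.8 with AZD7762, overlapped and also had 0.02.

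Both genes of Okazaki fragment processing overlapped between the groups. The flap endonuclease FEN1 was at 177, 170.1 and 161 CPM with DMSO and 183, 172 and 163 with AZD7762 (0.03). DNA ligase 1, encoded by LIG1, was at 69.3, 65.7 and 70.1 CPM with DMSO and 71.2, 68.7 and 74.3 with AZD7762 (0.06). In deoxynucleotide supply, RRM2 was at 973, 903 and 896 CPM with DMSO and 993, 1043 and 921 with AZD7762, a log2 fold change of 0.09 (SE 0.0679, interval -0.05 to 0.24) that rested on overlapping samples. Its partner RRM1, the large subunit of the same enzyme, had 0.01, with means of 355 ± 20.5 and 356 ± 25.9 CPM (SD, n = 3 each). Thymidylate synthase, encoded by TYMS, was at 43.0, 45.2 and 42.9 CPM with DMSO and 46.2, 49.3 and 41.7 with AZD7762 (0.06), but 47.9% of its exon bases lie opposite another gene.

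The 5 genes of G1/S control and maintenance methylation gave 1 gene without overlap (20%, compared with 15.0% of all genes). CCNE2, one of the 2 E-type cyclins that activate CDK2 at the start of S phase (ENSG00000175305), was at 64.8, 64.1 and 66.7 CPM with DMSO and 56.3, 59.9 and 57.2 with AZD7762. All 3 AZD7762 samples lay below all 3 DMSO samples, with means of 65.2 ± 1.34 and 57.8 ± 1.87 CPM (SD, n = 3 each) and a log2 fold change of -0.17 (SE 0.0587, interval -0.30 to -0.05, unadjusted p = 0.0117 by edgeR's quasi-likelihood test, adjusted p = 0.334). About 37.1% of the exon bases of CCNE2 lie opposite another gene. CCNE1, the other E-type cyclin, was at 17.7, 16.6 and 17.6 CPM with DMSO and 17.0, 17.7 and 16.6 with AZD7762, overlapping over nearly the whole range (-0.02, interval -0.19 to 0.15).

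E2F1 was at 167, 162 and 169.9 CPM with DMSO and 174, 152 and 175 with AZD7762, and its lowest and its highest value both came from the AZD7762 group (log2 fold change 0.01, interval -0.13 to 0.15). E2F2, a second activating E2F factor, had -0.01. UHRF1, which recruits the maintenance methyltransferase to newly copied DNA, had 0.05 with an interval of -0.22 to 0.31.

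All 3 fork protection and repair genes had negative log2 fold changes, and none passed the test. BRCA1 was at 57.9, 65.1 and 64.5 CPM with DMSO and 53.5, 56.6 and 61.1 with AZD7762, overlapping through replicate 3 of AZD7762 (-0.13, SE 0.0713, interval -0.29 to 0.02, adjusted p = 0.599). BRCA2, which protects stalled forks, was at 24.3, 27.7 and 30.3 CPM with DMSO and 22.8, 22.6 and 32.6 with AZD7762 (-0.07, interval -0.36 to 0.21), and the highest of its 6 values was an AZD7762 sample. FANCD2 had -0.04. The sign of BRCA2 turned when DMSO replicate 3 or either of AZD7762 replicates 1 and 2 was left out, and that of FANCD2 when GC and length trends were taken out.

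**Figure D3:**
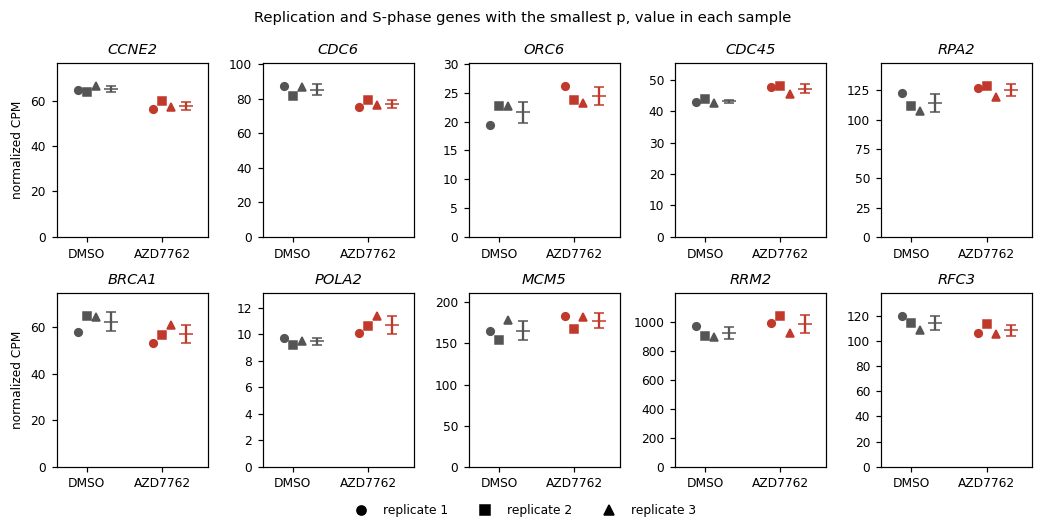
Normalized CPM in each sample for the 10 genes with the smallest p, with DMSO in grey, AZD7762 in red, a symbol for each replicate, and the mean with its SD (n = 3) to the right of each group; axes start at 0. The groups separate for CCNE2, CDC6, ORC6, CDC45 and POLA2 and overlap for RPA2, BRCA1, MCM5, RRM2 and RFC3.

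Summed over the 43 genes, the level was 6576, 6353 and 6372 CPM in DMSO replicates 1, 2 and 3 and 6652, 6679 and 6394 CPM in AZD7762 replicates 1, 2 and 3. These sums overlapped, with means of 6434 ± 124 and 6575 ± 158 CPM (SD over 3 samples each), and replicate 3 was the lowest AZD7762 sample. DMSO replicate 3 was the lowest of the 6 samples for 16 of the 43 genes, and AZD7762 replicate 2 the highest for 14.

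A few genes of the set varied much more between replicates than the rest, and they are described here because their spread was seen in the data. The median coefficient of variation within groups was 5.05% over the 43 genes, compared with 8.28% over all genes. POLD1 reached 24.0%, with 51.3, 49.5 and 82.0 CPM with DMSO and 63.6, 50.6 and 70.0 with AZD7762, and CDT1 23.8%, with 48.7, 39.5 and 71.3 CPM with DMSO and 53.5, 43.2 and 51.9 with AZD7762. DMSO replicate 3 was the high sample in both, as it was for UHRF1 at 38.3, 39.6 and 54.0 CPM with DMSO. The exons of POLD1 and CDT1 have the highest GC contents of the set, 64.8% and 64.3%, and DMSO replicate 3 also held the largest share of CPM in genes over 60% GC, 8.57% against 7.29% and 6.86% in DMSO replicates 1 and 2 and 7.46% to 8.47% with AZD7762. E2F1, at 61.6% GC, varied by only 5.68%, and BRCA2, at 36.9% GC the lowest of the set, by 17.1%. Across the 43 genes, Pearson's r between GC content and this spread was 0.36, a description over genes that share the same 6 libraries. The part of GC content in these values was not tested.

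**Figure D4:**
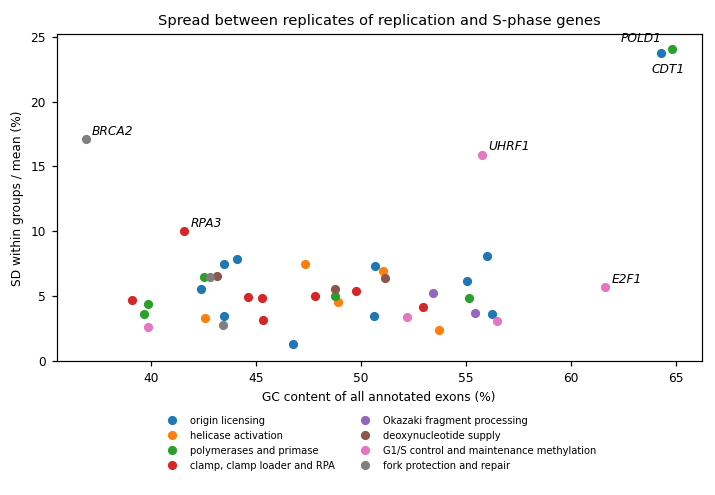
Spread within groups (SD divided by the mean, in percent) against the GC content of all annotated exons (percent) for each of the 43 genes, coloured by role. POLD1 and CDT1 at the upper right stand at 24.0% and 23.8%, BRCA2 at 17.1% and UHRF1 at 15.9%, while most genes lie below 10%.

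A wider list of 106 other replication and G1/S genes held no called gene either. Of these, 104 were tested (CCND1 and CCND2 were filtered out as low), 0 were called, and 9 had an unadjusted p under 0.05 (8.65%, compared with 9.68% of all genes), 5 higher and 4 lower with AZD7762. DESeq2's test also called 0. The groups did not overlap for 18 of the 104 genes (17.3%, compared with 15.0% of all genes), 9 in each direction, and the median log2 fold change was -0.01. POLD2, the second subunit of polymerase δ, had the smallest p, at 158, 149 and 150.0 CPM with DMSO and 189, 169 and 171 with AZD7762 (0.21, SE 0.0621, adjusted p = 0.235). CCNA2, the cyclin A of S and G2 phase, was at 161, 153 and 147 CPM with DMSO and 177, 187 and 163 with AZD7762, all 3 AZD7762 samples being above (0.19, adjusted p = 0.339).

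The other genes with the smallest p of this list were lower with AZD7762 and did not pass either. ATAD5, which unloads PCNA after replication, was at 26.8, 30.1 and 34.4 CPM with DMSO and 22.6, 22.5 and 28.5 with AZD7762, with overlap (-0.31, SE 0.11, adjusted p = 0.364). Leaving out the filter on low counts brought its adjusted p to 0.0478. FBXW7, the ubiquitin ligase subunit that targets cyclin E, was at 44.8, 53.0 and 46.2 CPM with DMSO and 40.7, 41.9 and 42.2 with AZD7762 (-0.21, adjusted p = 0.365). TIPIN, a fork protection factor that works with TIMELESS, was at 26.3, 27.5 and 26.2 CPM with DMSO and 23.4, 21.8 and 24.2 with AZD7762 (-0.21, adjusted p = 0.372), and 21.1% of its exon bases overlap another gene on the same strand. Neither FBXW7 nor TIPIN overlapped between the groups. By role, the groups did not overlap, against 15.0% of all genes, for 5 of 10 fork stability and checkpoint adaptor genes (4 of them lower with AZD7762), 5 of 20 cyclins, CDKs and E2F or RB family members, 3 of 9 genes of chromatin assembly and methylation, 2 of 17 polymerases, clamp loaders and Okazaki processing genes, 1 of 17 origin and helicase genes, 1 of 9 of deoxynucleotide supply, 1 of 7 CDK inhibitors and 0 of 15 genes of fork protection and repair. An unadjusted p under 0.05, reached by 9.68% of all genes, was found for 5, 2, 1 and 1 genes of the cyclin, polymerase, adaptor and CDK inhibitor roles and for 0 of the other roles.

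The 30 mitotic G2/M genes, which encode the later wave of cell cycle transcription, were set beside the replication genes for contrast. Of these, 1 was called, 11 had an unadjusted p under 0.05 (36.7%, compared with 9.68% of all genes), all 11 higher with AZD7762, and 15 of 30 lay above DMSO without overlap, where 6.79% of all genes did and 3 of the 43 replication genes (6.98%) did. Their median log2 fold change was 0.11 against 0.02 for the replication genes and 0.01 over all genes, differences that were given as medians and not tested. The mitotic genes also had a higher median level than all genes, 91.4 against 17.7 CPM. Their median standard error was lower, 0.0635 against 0.0973, and they were not compared with genes of like level. This list, too, was chosen with earlier results of these data known. The gene called was AURKA, the Aurora A kinase of the spindle poles, at 82.5, 75.5 and 75.4 CPM with DMSO and 99.8, 106 and 95.9 with AZD7762. Its groups were well apart, with means of 77.8 ± 4.10 and 100.4 ± 4.90 CPM (SD, n = 3 each) and a log2 fold change of 0.37 (SE 0.0637, interval 0.23 to 0.51, adjusted p = 0.0153 by edgeR's quasi-likelihood test). The adjusted p of AURKA was 0.101 without DMSO replicate 2, 0.0833 without AZD7762 replicate 1 and 0.102 without AZD7762 replicate 2. Its interval and those of the replication genes nearest to it, ORC6 (-0.01 to 0.37) and POLA2 (-0.03 to 0.38), share values, and the difference between genes was not tested.

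The promoters of the 2 lists also differed in the letters they held. Windows were found for 24 of the 30 mitotic genes, of which 18 (75%) held TTTGAA and 3 (12.5%) an E2F-type spelling, the reverse of the order in the replication genes, where 1 of 37 held TTTGAA and 21 held an E2F-type spelling. The wider list of replication genes lay between, with an E2F-type spelling in 22 of 86 genes (25.6%) and TTTGAA in 11 (12.8%).

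**Figure D5:**
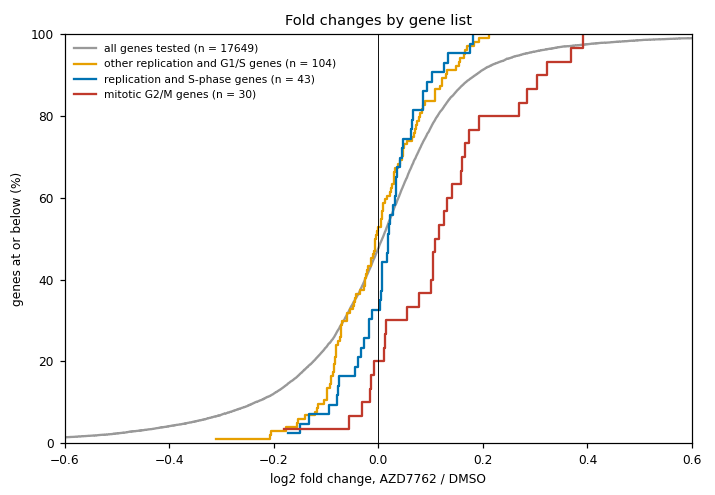
Cumulative share of genes (percent) at or below each log2 fold change of AZD7762 against DMSO, for the 43 replication and S-phase genes, the 104 tested genes of the wider replication list, the 30 mitotic genes and all 17649 genes tested. The replication curves rise steeply around 0, with medians of 0.02 and -0.01, and the mitotic curve lies to their right with a median of 0.11.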

How the data were processed

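RNA-seq was performed on 3 DMSO and 3 AZD7762 samples of EndoC-βH1 cells (polyadenylated RNA, paired reads of 51 bases), grouped by the deposited labels. The authors prepared libraries with either a stranded or an unstranded kit, without saying which kit each sample received, checked reads with FastQC (0.10.1), trimmed them with cutadapt (1.18), mapped them to GRCh37, and obtained gene counts from HTSeq-count. The aligner and the strand setting are not given in the sources used here, so overlap with other genes is reported on either strand. The deposited values are whole-number counts per Ensembl gene, neither scaled nor filtered.

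Symbols, GRCh37 positions, lengths, GC content and exon overlaps were taken from GENCODE v44lift37, which matched 58646 of 60671 identifiers and whose release differs from that of the files. R 4.3.3 was used with the packages edgeR (4.0.16), DESeq2 (1.42.0) and limma (3.58.1). Genes were filtered with filterByExpr (17649 kept), libraries were scaled by TMM (factors 0.983 to 1.02), and AZD7762 was compared with DMSO by the two-sided quasi-likelihood test on all genes, with Benjamini-Hochberg adjustment and a threshold of 0.05. The biological coefficient of variation was 7.15%. Standard errors were obtained from each fold change and its F statistic, and intervals are 95% and unadjusted. Normalized CPM are counts scaled by the library's total over the tested genes and its TMM factor. Replicates of a group differed by more than sampling noise (chi-square per gene 4.51 to 8.62). The procedure was tested on simulated counts.

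The members, lists and alternatives were chosen with earlier results of these data known. Values in every sample are given for the 10 members with the smallest p, for the most and least abundant member by CPM of each role and for the 3 largest rises and falls, and in each of the other lists for the genes called or, if none, the 5 with the smallest p; POLD1, CDT1 and UHRF1 were added after their spread was seen. Alternatives were other scalings, filters and tests, a replicate block, GC and length trends taken out, and leaving out each sample.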

Additional observations from a re-analysis of the deposited data

How the results depend on the processing

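No replication or S-phase gene was called under any of the 11 other settings or with any 1 sample left out, where the lowest adjusted p was 0.0865, and the median log2 fold change of the 43 genes stayed between -0.02 (library totals alone) and 0.04. Counts depended more on the processing, and the cause was not tested. The genes called over the whole table, 125, became 330 without a filter on low counts, 267 with the likelihood ratio test, 254 with the exact test and 224 with GC and length trends taken out, and 77 (without AZD7762 replicate 1) to 168 with 1 sample left out. The mitotic genes called, 1, became 3 without a filter, 2 with DESeq2, 5 with the likelihood ratio test, 5 with the exact test and 4 with GC and length trends taken out, and were 0 to 1 with 1 sample left out. The wider replication list had 1 call, ATAD5, without a filter. Replication genes with an unadjusted p under 0.05, 2, became 5 with GC and length trends taken out, and 1 to 6 with 1 sample left out. The share of all genes at that threshold was not counted in these runs, where the calls over the whole table changed too.

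Signs near 0 are not settled. Upper-quartile scaling gave a log2 fold change of -0.0094 for E2F1 and -0.012 for PCNA. Library totals alone gave -0.028 for E2F1, -0.0064 for FEN1, -0.014 for MCM7, -0.030 for PCNA and -0.017 for RPA3, and GC and length trends taken out gave -0.060 for E2F1 and -0.0071 for MCM7. With 1 sample left out, the log2 fold change ran from -0.031 to 0.063 for E2F1, -0.011 to 0.050 for MCM7, -0.027 to 0.041 for PCNA, -0.021 to 0.069 for FEN1, -0.078 to 0.081 for RPA3, -0.27 to 0.0073 for BRCA2, -0.056 to 0.0091 for GINS4 and -0.054 to 0.0053 for CCNE1. The signs of CCNE2, CDC6, ORC6, CDC45 and POLA2 held in every alternative run.

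Same-numbered samples deviated together with r of 0.049, 0.118 and 0.200, and AZD7762 replicate 2 correlated best with DMSO replicate 1 (0.165), so the numbers were not taken to pair the samples. With the replicate number as a block, 378 genes, 5 mitotic genes and 3 genes of the wider list (POLD2, CCNA2 and ATAD5) were called, and 7 replication genes had an unadjusted p under 0.05. The replicate block together with GC and length trends taken out gave 579, 10, 3 and 9, with -0.058 for E2F1 and -0.0074 for MCM7. With a block, too, the share of all genes with an unadjusted p under 0.05 was not counted. Depth limits POLA2 most, at 198 counts in its lowest sample.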

Other observations

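Further mitotic genes, named after their values were seen, lay above DMSO in all 3 AZD7762 samples without passing edgeR's quasi-likelihood test. KIF20A, a kinesin of cytokinesis, was at 102, 93.2 and 96.1 CPM with DMSO and 109.8, 129 and 125 with AZD7762 (log2 fold change 0.32, adjusted p = 0.0693), and DESeq2 gave it an adjusted p of 0.0136. CDC20, which activates the anaphase-promoting complex, was at 35.5, 32.8 and 35.2 CPM with DMSO and 43.0, 42.7 and 40.2 with AZD7762 (0.28, adjusted p = 0.104). CENPA, the histone variant of centromeres, was at 22.8, 23.3 and 22.2 CPM with DMSO and 28.9, 29.4 and 26.0 with AZD7762 (0.30, adjusted p = 0.13). PLK1, the Polo-like kinase of mitotic entry and the spindle, was at 77.1, 68.6 and 78.4 CPM with DMSO and 90.3, 88.3 and 91.4 with AZD7762 (0.27, adjusted p = 0.108). Each of the 4 was called under some other settings: the adjusted p values by edgeR's likelihood ratio test were 0.00647 for KIF20A, 0.0311 for CDC20, 0.042 for CENPA and 0.0276 for PLK1, those by its exact test 0.00646, 0.0326, 0.0442 and 0.0286, and with GC and length trends taken out KIF20A had 0.0125, CENPA 0.0235 and PLK1 0.0344. DESeq2's test called KIF20A alone among the 4. None of the 4 was called under the other scalings. With 1 sample left out, KIF20A was called without AZD7762 replicate 1, and CDC20, CENPA and PLK1 were called in no run. Of the 30 mitotic genes, 24 had positive and 6 had negative log2 fold changes.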
